A study of Mus musculus with 24 samples.

Results

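Neural stem and progenitor cells (NSPCs) carrying both functional alleles of *Kat6a* were compared after 3 days in differentiating and 3 days in proliferating culture. The comparison takes in 8 of the 24 RNA sequencing libraries of the series, chosen by their labels alone, namely the 4 differentiating and the 4 proliferating *Kat6a*+/+ libraries. All 8 came from the dorsal telencephalon, from which the cerebral cortex forms, of C57BL/6 embryos at E12.5 (embryonic day). The other 16 libraries came from *Kat6a*+/- and *Kat6a*-/- NSPCs in the same 2 cultures. They enter the filter on low counts, the scaling factors and the estimate of the spread. They also enter the average level used in choosing the largest changes and the comparison of genotypes at the end. The filter passed 13590 genes with all 24 libraries and 13076 with the 8 libraries alone. Proliferating cells grew as neurospheres with FGF2, EGF and heparin. Differentiating cells were plated on poly-L-ornithine and laminin with 1% fetal bovine serum, and no FGF2, EGF or heparin is listed for that medium. RNA came from the RNeasy mini kit in the proliferating group and from the RNeasy micro kit in the differentiating group. Growth factors, serum, attachment, plated cell number and RNA kit therefore changed together and cannot be told apart.

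A library from bulk culture measures a mixture, so fewer cells of a type and less RNA per cell cannot be told apart. Levels are given as CPM, the counts of a gene scaled to a common library total after trimmed mean of M-values (TMM) normalisation. Changes are log2 fold-changes of differentiating over proliferating with their standard errors (SE), from limma-voom fitted to all 24 libraries, and a gene is called different at a false discovery rate (FDR) under 0.05. Each SE thus draws on the spread within all 6 groups and does not measure the spread of the listed values alone. Values listed for 4 libraries are in the order of replicates 1 to 4. The libraries held 7854556 to 40838203 counts in the proliferating group and 17701458 to 23692125 in the differentiating group. The targeted gene *Kat6a* was expressed in all 8, at 409, 391.5, 407 and 373 CPM in proliferating and 292, 239, 256 and 282 CPM in differentiating cells. It was at 333 to 368 CPM in proliferating and 215 to 257 CPM in differentiating *Kat6a*+/- libraries, and at 334 to 389 and 160.0 to 253 CPM in the *Kat6a*-/- libraries. Since the null allele lacks only internal exons, a count summed over all exons is no test of the genotype. The first principal component held 88.9% of the variance and placed the proliferating libraries at 86.2 to 91.4 and the differentiating libraries at −91.2 to −85.5, and the second component held 3.20%. The labels name 5 litters among the 8 libraries.

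An NSPC divides under FGF and EGF, which act through receptor tyrosine kinases and the RAS-ERK cascade. When mitogens are withdrawn, dividing progenitors can leave the cell cycle and take up a neuronal, astrocytic or oligodendrocytic fate. BMP signals, through SMAD proteins and the ID transcription factors, favour astrocytes, proneural factors such as NEUROG2 favour neurons, and OLIG1, OLIG2 and SOX10 mark the oligodendrocyte lineage.

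The labelled cell type was checked against marker genes. Of the stem cell markers, *Sox2*, which encodes a transcription factor that maintains neural progenitors, was at 338, 314, 308 and 344 CPM in proliferating cells and *Nes*, which encodes the intermediate filament nestin, at 2323, 2286, 2197 and 2018 CPM. *Pax6*, a dorsal progenitor factor, was at 40.3 to 44.6 CPM and *Hes5*, a Notch target, at 7.48 to 12.8 CPM in those libraries. The genes that define microglia were at or near 0 in both conditions: the 14 microglia and macrophage markers summed to 4.93 to 5.46 CPM in proliferating and 1.89 to 2.70 CPM in differentiating libraries, and 7 of them, including *C1qa*, *Cx3cr1* and *Trem2*, were at 0 in all 8 libraries. The 8 erythroid markers summed to at most 1.14 CPM in any library and none of them passed the filter on low counts. Markers of neurons were uneven in level. *Snap25* stayed at 4.40 CPM or below, and *Rbfox3* averaged 4.59 CPM in proliferating and 5.27 CPM in differentiating libraries. *Stmn2* had 0 counts in the proliferating group and 7 in the differentiating group. *Tubb3* averaged 4.31 and 72.2 CPM and *Dcx* 3.13 and 39.3 CPM in the same order. *Map2* was high in both groups, at 891 and 468 CPM on average.

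Of the 13590 protein-coding genes tested, 9913 differed between the conditions, which is 72.9% of all genes. Of these, 4988 were higher in differentiating NSPCs (36.7%) and 4925 were lower (36.2%). With a log2 fold-change beyond 1 required as well, 2740 genes were higher (20.2%) and 1976 were lower (14.5%). The tail was longer on the side of the rises: 264 genes rose and 39 fell by more than 32-fold. The median log2 fold-change over all genes was 0.02, and among the called genes the median size of the change was 0.95. Because most genes were called, a gene list in which about 37% of the members rose and 36% fell does not stand apart from the rest of the transcriptome, and each list below is to be read against those shares. Groups without overlap were common too. In the fibronectin and matricellular list, 14 of 32 genes lay wholly above and 9 wholly below the proliferating range. Lack of overlap in a single gene therefore does not set it apart.

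**Figure D1:**
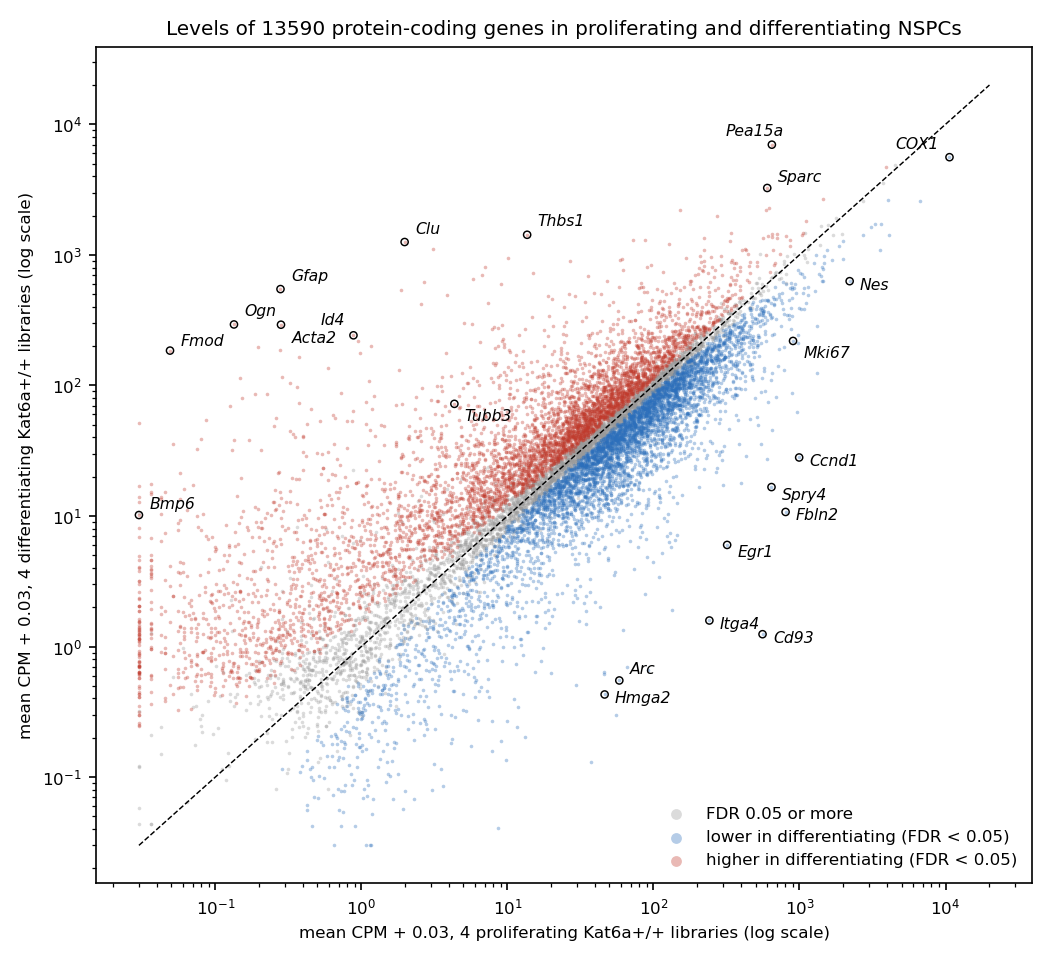
Mean level of each of 13590 protein-coding genes in the 4 proliferating (horizontal axis) and the 4 differentiating (vertical axis) Kat6a+/+ libraries, in CPM plus 0.03 on log scales, with genes higher in differentiating cells in red, lower in blue and uncalled genes in grey. Named genes far above the dashed line of equality include Gfap, Fmod and Ogn, which lie below 1 CPM in proliferating cells and above 100 CPM in differentiating cells. Cd93 and Itga4 lie farthest below the line among those named.

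The 12 largest rises by log2 fold-change, among called genes of at least moderate level whose groups do not overlap, were led by genes for secreted matrix proteins and for astrocyte proteins. *Ogn*, which encodes the small leucine-rich proteoglycan osteoglycin, measured 0.0759, 0.240, 0.101 and 0 CPM in proliferating and 268, 268, 269.9 and 366 CPM in differentiating replicates. The log2 fold-change was 11.23 (SE 1.02, FDR 4.00e-09). *Fmod*, for the related proteoglycan fibromodulin, had 3 counts over the 4 proliferating libraries and 166, 276, 205 and 91.9 CPM in the differentiating ones, a ratio of 4418 (95% interval 1511 to 21425) from counting error alone. *Acta2*, encoding smooth muscle alpha-actin, went from 0.177, 0.301, 0.402 and 0.127 CPM to 238, 517, 235 and 177 CPM, a log2 fold-change of 10.03 (SE 2.59, FDR 0.00161). That the groups do not overlap was a condition of entry to this set and is no finding about these genes. The other genes of this set were *Gfap*, *Clu* and *Aqp4*, which belong to astrocytes and are described below, *Slc39a12*, a zinc transporter gene (0.165 to 198 CPM on average), *Pcp4*, for a calmodulin regulator (0.118 to 114), *Ccdc3* (0.247 to 188), *Pdgfrl* (0.158 to 85.3), *S1pr3*, a sphingosine 1-phosphate receptor gene (0.343 to 166), and *Nog*, for the BMP antagonist noggin.

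The 12 largest falls, chosen by the same rule, included cell surface, matrix and immediate early genes. Groups without overlap were a condition of entry here too. *Cd93*, which encodes a C-type lectin-like receptor, measured 407, 599.9, 675 and 552 CPM in proliferating and 1.16, 1.04, 0.772 and 1.89 CPM in differentiating replicates. The log2 fold-change was −8.87 (SE 0.73, FDR 1.11e-09). *Hmga2*, for a chromatin protein of young progenitors, measured 46.0, 40.5, 54.5 and 44.1 against 0.440, 0.928, 0.145 and 0.0838 CPM, a log2 fold-change of −7.34 (SE 1.18, FDR 1.06e-05). *Itga4*, for integrin alpha 4, dropped from 242 to 1.55 CPM on average, *Fbln2*, for the matrix protein fibulin 2, from 804 to 10.7, and *Col28a1* from 66.4 to 0.669. *Tle6* fell from 92.2 to 0.634 CPM, *Sting1*, for the sensor of cyclic dinucleotides, from 46.0 to 0.614, *Nptx1*, for neuronal pentraxin 1, from 134 to 1.87, and *Adm*, for the peptide hormone adrenomedullin, from 61.5 to 1.30. In absolute level the most counts were gained by *Pea15a*, for a phosphoprotein that binds ERK, which went from 647 ± 31.9 to 6983 ± 984 CPM (SD, n = 4 each). It was followed by the genes for the matrix protein SPARC (*Sparc*, 602 to 3254 CPM), the endothelin receptor B (*Ednrb*, 152 to 2222), prosaposin (*Psap*), the protocadherin FAT1 (*Fat1*, 588 to 2193), thrombospondin 1 (*Thbs1*) and clusterin (*Clu*). The most counts were lost by mitochondrially encoded genes and by translation and progenitor genes: *COX1* went from 10647 to 5600.5 CPM, *Eef1a1* from 6736 to 2590.0, *ATP6* from 4103 to 1426, *COX2* from 3548 to 1084, *ND1* from 3609.6 to 1718, *Nes* from 2206 to 629, *Eef2* from 3270.4 to 1726 and *Hsp90ab1*, a chaperone gene, from 3071 to 1629.8.

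Genes induced by FGF and ERK signalling fell almost as a block. Of 23 listed genes, 21 were tested, 19 fell, all by more than 1 on the log2 scale, and 1 rose, and the median log2 fold-change was −3.17. The listed genes together summed to 4771 to 4992 CPM in proliferating and 534 to 932 CPM in differentiating libraries. *Spry4*, which encodes a Sprouty inhibitor that ERK signalling switches on and that damps the pathway in turn, measured 576, 642, 638 and 717 CPM in proliferating and 12.4, 33.0, 12.501 and 8.55 CPM in differentiating replicates. The highest differentiating value, in replicate 2, was still far below the lowest proliferating value, and the log2 fold-change was −5.52 (SE 0.60, FDR 5.42e-08). Its relatives fell too, with log2 fold-changes of −3.80 for *Spry1* and −2.85 for *Spry2*. *Dusp6*, for a phosphatase that inactivates ERK, measured 229, 267, 291 and 297 against 19.5, 38.3, 21.6 and 14.1 CPM and changed by −3.66 (SE 0.66, FDR 4.27e-05). The ETS factor genes downstream of FGF receptors fell too, with log2 fold-changes of −4.62 (SE 0.39) for *Etv4* and −3.17 (SE 0.44) for *Etv5*.

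Among the targets that carry the signal into the nucleus and the cell cycle, *Egr1*, an immediate early transcription factor gene, measured 136, 192, 653 and 298 CPM against 7.10, 6.72, 4.25 and 5.83 CPM. The proliferating libraries spread widely, yet the lowest of them was above every differentiating library, and the log2 fold-change was −5.56 (SE 0.70, FDR 4.08e-07). *Arc*, another immediate early gene, went from 58.4 to 0.520 CPM. *Lif*, for the cytokine leukaemia inhibitory factor, went from 12.4 to 1.11 CPM. *Myc*, for the growth-promoting transcription factor, measured 221, 240.2, 151 and 213 against 22.6, 14.1, 16.6 and 12.9 CPM and changed by −3.66 (SE 0.19, FDR 7.17e-13). *Ccnd1*, for cyclin D1, the cyclin that links mitogens to the G1 phase, measured 1088, 915, 948 and 1031 against 24.5, 51.4, 18.4 and 17.8 CPM, a log2 fold-change of −5.31 (SE 0.71, FDR 9.73e-07). Both genes were lower in every differentiating library than in any proliferating library. The exception on the list was *Hbegf*, for a growth factor that itself binds the EGF receptor, which rose from 18.3 ± 2.53 to 143 ± 37.98 CPM (SD, n = 4 each) with a log2 fold-change of 2.91 (SE 0.26, FDR 2.60e-09). *Dusp5* was not called, at −0.62 (SE 0.31, FDR 0.0715) on the log2 scale. Without differentiating replicate 2 it was called lower (log2 fold-change −0.86, FDR 0.0172). *Egfr*, for the EGF receptor, fell from 274 to 103 CPM, whereas *Fgfr2*, for an FGF receptor, measured 12.1, 9.98, 6.94 and 7.61 CPM in proliferating and 203, 236, 243 and 197 CPM in differentiating replicates and rose by 4.44 (SE 0.21, FDR 3.33e-13).

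**Figure D2:**
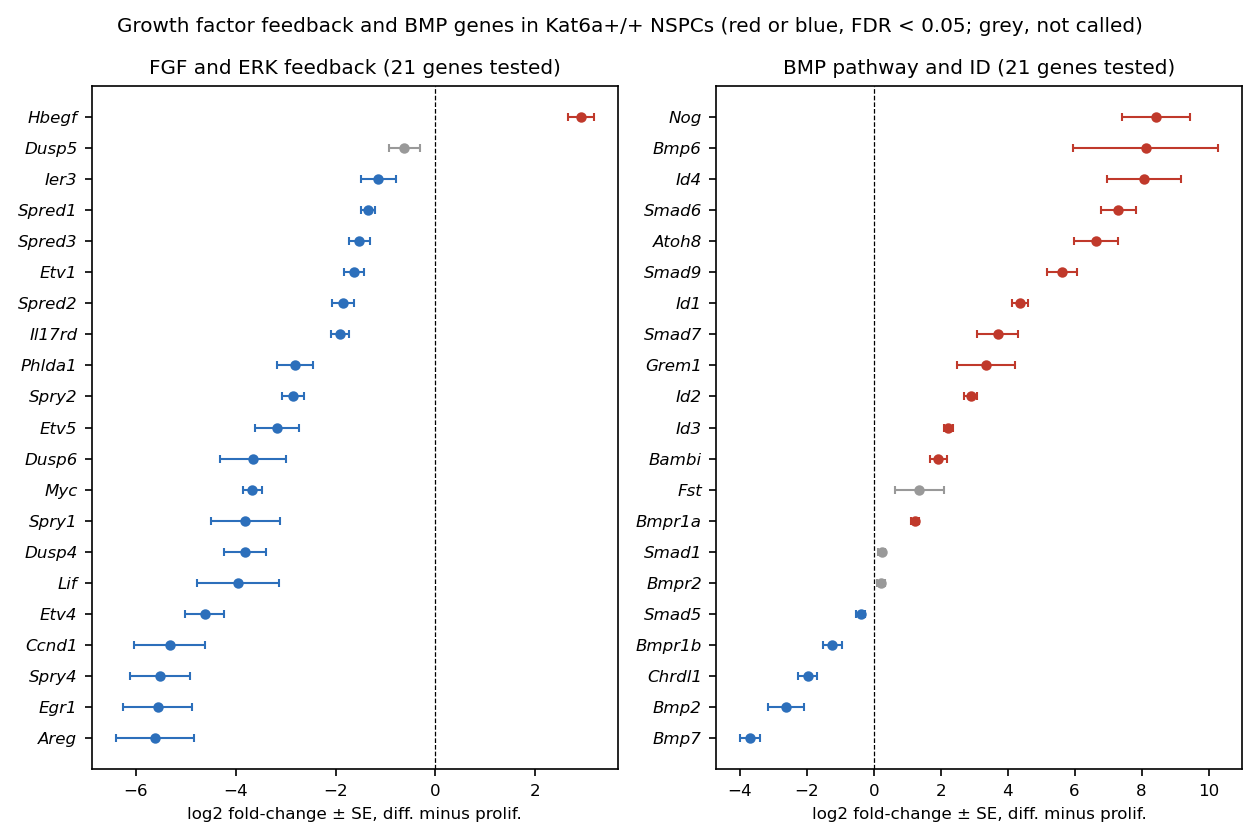
Log2 fold-change with its SE (horizontal axis) of every tested gene of the FGF and ERK feedback list and of the BMP pathway and ID list, differentiating minus proliferating Kat6a+/+ NSPCs, with red for higher, blue for lower and grey for uncalled genes. In the FGF and ERK list Hbegf alone lies to the right among called genes, and in the BMP list Nog, Bmp6, Id4, Smad6 and Atoh8 lie farthest to the right and Bmp7 farthest to the left.

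The cell cycle lists fell without an exception. All 43 genes of the S phase list were tested and fell, 40 of them by more than 1, with a median of −1.79, and all 51 genes of the G2 and mitosis list fell, 48 by more than 1, with a median of −1.71. The S phase genes summed to 5527 to 6157 CPM in proliferating and 1467 to 2159 CPM in differentiating libraries, so that expression was reduced but far from lost. *Mki67*, which encodes the proliferation antigen Ki-67, measured 975, 894, 998 and 747 CPM in proliferating and 246, 216, 269 and 145 CPM in differentiating replicates. All 4 differentiating values lay below the proliferating range, and the log2 fold-change was −2.06 (SE 0.29, FDR 1.55e-06). *Top2a*, for the topoisomerase that untangles chromosomes in mitosis, measured 897, 843, 920.5 and 845 against 304, 263, 324 and 194 CPM and changed by −1.71 (SE 0.29, FDR 1.90e-05). Log2 fold-changes were −1.72 for *Ccnb1* (cyclin B1), −1.59 for *Cdk1* (its kinase) and −2.07 for *Kif11* (a spindle motor). In the S phase list *Mcm3* and *Mcm6*, for subunits of the replicative helicase, changed by −2.47 and −1.83, *Pcna*, for the polymerase clamp, by −1.11, and *Uhrf1*, which carries DNA methylation through replication, by −2.84.

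Promoter sequence was examined for the letters of motifs known from these gene classes, namely the E2F motifs TTTGGCGC and TTTCCCGC, the cell cycle homology region (CHR) TTTGAA, the CCAAT box CCAAT, and for cholesterol genes the sterol regulatory element (SRE) TCACCCCA. Both strands were searched in 300 bases of the RefSeq promoter table, 250 before to 50 after the gene start in GRCm38.p6, which held 10664 of the tested genes, 31 of the 43 S phase genes, 44 of the 51 G2 and mitosis genes and 22 cholesterol genes. No motif's letters contain those of another. Either E2F motif was present in 32.3% of the S phase promoters, in 4.55% of the G2 and mitosis promoters and in 3.33% of the tested promoters. The CHR was present in 68.2% of the G2 and mitosis promoters, 19.4% of the S phase promoters and 14.2% of the tested promoters. The CCAAT box was present in 77.3% of G2 and mitosis, 71% of S phase, 86.4% of cholesterol and 43.4% of tested promoters. The SRE was present in 2 of 22 cholesterol promoters (9.09%) and in 1.65% of the tested ones. These matches are a description of letters in a fixed window. A pair of promoters is shown for each class, written 5′ to 3′ on the strand of the gene, with the motif in capitals where it or its reverse complement stands: E2F for *Mcm6* (chr1:128359656-128359955, minus strand) and *Mcm3* (chr1:20820263-20820562, minus strand), CHR for *Mki67* (chr7:135716330-135716629, minus strand) and *Top2a* (chr11:99024140-99024439, minus strand), and SRE for *Hmgcs1* (chr13:119690101-119690400, plus strand) and *Srebf2* (chr15:82147019-82147318, plus strand).
Mcm6: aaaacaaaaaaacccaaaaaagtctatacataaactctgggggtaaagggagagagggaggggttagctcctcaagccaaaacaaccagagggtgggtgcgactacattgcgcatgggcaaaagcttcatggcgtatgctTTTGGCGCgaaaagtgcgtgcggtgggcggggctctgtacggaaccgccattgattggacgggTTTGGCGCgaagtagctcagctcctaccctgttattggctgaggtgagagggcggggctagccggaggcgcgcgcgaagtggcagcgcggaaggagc
Mcm3: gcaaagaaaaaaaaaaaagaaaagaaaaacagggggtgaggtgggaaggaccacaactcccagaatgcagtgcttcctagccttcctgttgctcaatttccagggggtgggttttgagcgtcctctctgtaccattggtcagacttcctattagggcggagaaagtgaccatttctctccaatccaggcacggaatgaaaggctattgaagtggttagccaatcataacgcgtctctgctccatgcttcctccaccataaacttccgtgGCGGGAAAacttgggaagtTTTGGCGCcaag
Mki67: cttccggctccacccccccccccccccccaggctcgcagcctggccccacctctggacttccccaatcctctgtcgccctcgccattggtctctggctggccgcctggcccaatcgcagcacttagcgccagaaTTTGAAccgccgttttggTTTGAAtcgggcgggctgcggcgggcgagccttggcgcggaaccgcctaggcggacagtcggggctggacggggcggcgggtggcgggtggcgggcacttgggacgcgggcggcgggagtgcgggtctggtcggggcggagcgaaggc
Top2a: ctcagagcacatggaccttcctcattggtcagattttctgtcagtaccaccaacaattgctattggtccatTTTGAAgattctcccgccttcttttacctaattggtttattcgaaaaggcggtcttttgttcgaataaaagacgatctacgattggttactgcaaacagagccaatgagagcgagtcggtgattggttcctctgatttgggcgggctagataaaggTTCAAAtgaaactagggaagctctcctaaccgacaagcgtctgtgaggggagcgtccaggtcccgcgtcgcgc
Hmgcs1: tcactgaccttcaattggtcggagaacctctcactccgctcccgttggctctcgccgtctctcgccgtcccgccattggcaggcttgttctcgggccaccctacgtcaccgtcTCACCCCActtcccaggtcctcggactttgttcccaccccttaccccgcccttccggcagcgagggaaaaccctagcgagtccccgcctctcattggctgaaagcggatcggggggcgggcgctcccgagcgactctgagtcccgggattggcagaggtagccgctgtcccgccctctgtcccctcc
Srebf2: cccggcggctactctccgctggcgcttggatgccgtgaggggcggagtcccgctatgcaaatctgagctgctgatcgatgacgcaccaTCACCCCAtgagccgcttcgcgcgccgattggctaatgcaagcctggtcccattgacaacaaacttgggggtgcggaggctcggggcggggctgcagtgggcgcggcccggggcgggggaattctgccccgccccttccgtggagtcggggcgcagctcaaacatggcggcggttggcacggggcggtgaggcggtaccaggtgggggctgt
The *Mcm6*, *Mcm3*, *Mki67* and *Top2a* windows each hold 2 copies of their motif and the *Hmgcs1* and *Srebf2* windows 1.

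The brakes of the cell cycle did not move as 1 group. Of 19 genes of the list of CDK inhibitors, D cyclins and cell cycle exit, 10 rose and 4 fell. *Cdkn1b*, for the inhibitor p27, rose from 128 to 202 CPM, and *Cdkn2b*, for p15, from 4.92 to 21.2 CPM. *Cdkn1a*, for p21, went the other way, at 315, 276, 214 and 261 CPM in proliferating and 93.6, 191, 104 and 79.1 CPM in differentiating replicates. The groups did not overlap, differentiating replicate 2 being the closest to the proliferating range, and the log2 fold-change was −1.25 (SE 0.40, FDR 0.00754). Of the retinoblastoma family, *Rb1* rose by 0.92 and *Rbl1* fell by 1.16. The D cyclins moved apart: *Ccnd2* rose from 1103 to 1818 CPM and *Ccnd3* from 58.8 to 110.1 CPM while *Ccnd1* fell from 995 to 28.0 CPM. Per kilobase of gene model, *Ccnd1* stood at 264 and *Ccnd2* at 191 CPM in proliferating cells, and *Ccnd2* stood at 315 and *Ccnd1* at 7.44 in differentiating cells. Of 20 listed p53 targets, 3 rose and 10 fell, with *Fas*, for a death receptor, at 2.49 and 41.9 CPM among those that rose.

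Genes for making ribosomes were lower throughout. Of 30 genes of ribosome biogenesis, 29 fell and none rose, with a median of −1.45, and of 81 tested genes for cytosolic ribosomal proteins 73 fell and 1 rose, with a median of −1.001. *Npm1*, for nucleophosmin, measured 482, 477, 476 and 466 against 119, 97.5, 120.2 and 121 CPM and changed by −2.06 (SE 0.16, FDR 3.32e-10). All 4 differentiating libraries were far below the proliferating ones. *Nop56*, for a core protein of small nucleolar particles, changed by −2.04, and *Rplp0*, for a protein of the ribosomal stalk, by −1.30. The elongation factor gene *Eef1a1*, which lost the most CPM of any nuclear gene, changed by −1.38 and *Eef2* by −0.91. The share of all counts in ribosomal protein genes was 1.21% to 1.40% in proliferating and 0.549% to 0.697% in differentiating libraries. Ribosomal protein genes have many near-identical processed copies, so their counts are less certain than those of single-copy genes. Mitochondrial ribosomal protein genes moved less, with 12 of 75 higher, 35 lower and a median of −0.16.

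Metabolic genes divided by pathway. Of 32 genes of cholesterol and fatty acid synthesis 24 fell and 2 rose (median −1.13). *Idi1*, for an isomerase of the mevalonate pathway, measured 257, 283, 313 and 285 against 47.0, 68.3, 59.4 and 46.8 CPM and changed by −2.38 (SE 0.17, FDR 1.58e-10). The 4 values within each condition lay close together and the conditions were far apart. The log2 fold-change was −1.26 for *Fasn*, for fatty acid synthase, and −2.64 for *Elovl6*, which elongates fatty acids. The genes whose SRE-bearing promoters are shown above changed by −0.58 for *Hmgcs1* and −0.67 for *Srebf2*. *Srebf1*, whose product regulates fatty acid genes, rose from 264 to 543 CPM.

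In the hypoxia and glycolysis list 15 of 27 genes fell and 4 rose (median −0.62). The proliferating libraries were unequal here, with the listed genes summing to 3593 CPM in the lowest and 8922 CPM in the highest, against 3469.9 to 3945 CPM in differentiating libraries. *Vegfa*, for the hypoxia-induced vascular growth factor, measured 226, 546, 78.1 and 291 CPM in proliferating and 29.7, 42.4, 32.8 and 18.7 CPM in differentiating replicates. Proliferating replicate 3 was the lowest of its group and replicate 2 the highest, and all 4 were above the differentiating range (log2 fold-change −2.97 (SE 0.56, FDR 6.67e-05)). *Ldha*, for the lactate dehydrogenase subunit of glycolytic cells, measured 1136, 1581, 601 and 992 against 332, 449, 370.3 and 398 CPM, with the same lowest and highest proliferating libraries, and changed by −1.38 (SE 0.27, FDR 9.66e-05). *Ldhb*, for the other main subunit, rose from 92.7 to 375 CPM. *Pkm*, for pyruvate kinase, fell by 1.01 and *Pfkm*, for the muscle type of phosphofructokinase, rose by 1.40. Of 81 nuclear genes of oxidative phosphorylation 39 rose and 3 fell, none of the latter by more than 1, with a median of 0.26, in contrast with the fall of the mitochondrially encoded *COX1*, *COX2*, *ATP6* and *ND1* given above (−0.93, −1.72, −1.54 and −1.07 on the log2 scale). Libraries of polyadenylated RNA catch mitochondrial transcripts to a varying degree, and the part of the 2 RNA kits in their fall was not tested.

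Lysosomal genes leaned upwards. Of 35 genes for lysosomal enzymes and the proton pump 22 rose and 5 fell, 1 of them by more than 1, and the listed genes summed to 3998 to 4028 CPM in proliferating and 7876 to 8695 CPM in differentiating libraries. *Psap*, for the precursor of the saposins, measured 636, 622, 606 and 621 against 2210.2, 2222, 2120.3 and 2666 CPM and changed by 1.89 (SE 0.12, FDR 3.81e-11). Every differentiating library was above every proliferating library by a wide margin. *Ctsl*, for cathepsin L, rose by 2.16, *Lamp1*, for a membrane protein of lysosomes, by 1.24, and *Tfeb*, for a transcription factor of lysosomal genes, by 1.30.

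**Figure D3:**
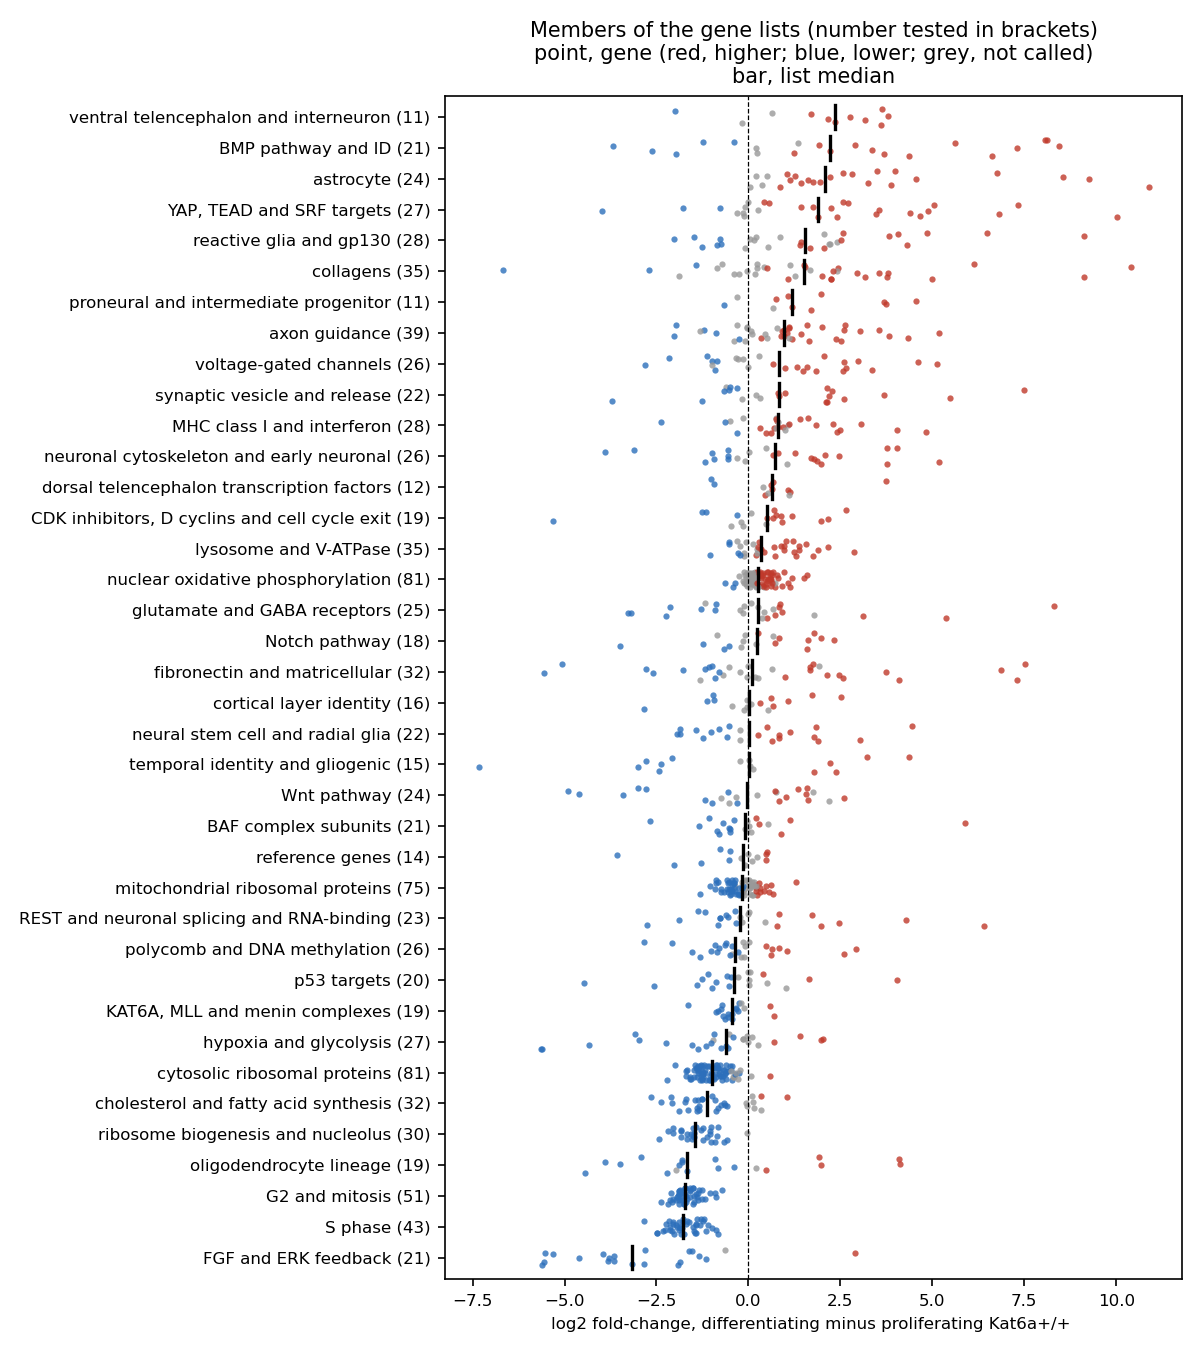
Log2 fold-change of each tested member (points) of the gene lists, differentiating minus proliferating Kat6a+/+ NSPCs, with the number tested in brackets and the list median as a black bar. The FGF and ERK, S phase, G2 and mitosis and ribosome biogenesis lists lie almost wholly to the left, and the astrocyte list holds no called gene to the left of 0.

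The stem cell list did not fall as a whole: 11 of its 22 genes rose (50%) and 9 fell (40.9%), with a median of 0.02. Over all genes 36.7% rose and 36.2% fell. *Nes* measured 2323, 2286, 2197 and 2018 CPM in proliferating and 497, 861, 414 and 743 CPM in differentiating replicates, a log2 fold-change of −1.87 (SE 0.21, FDR 7.08e-08). All differentiating values were well below the proliferating ones. *Sox3*, for a relative of SOX2, changed by −1.87 and *Hes1*, a Notch and BMP target, by −1.24, both lower. *Fabp7*, for the brain lipid-binding protein of radial glia, measured 998, 868, 1211 and 1099 against 836, 501, 759 and 755 CPM. The groups did not overlap, but the log2 fold-change was small at −0.58 (SE 0.25, FDR 0.0410). The call was lost when proliferating replicate 1, 3 or 4 or differentiating replicate 2, 3 or 4 was left out (FDR up to 0.195). In the 8 *Kat6a*+/+ libraries alone *Fabp7* was called lower (log2 fold-change −0.56, FDR 0.0109). On the other side *Sox2* rose from 326 to 459.8 CPM and *Pax6* from 42.2 to 65.6 CPM. Larger rises were seen in *Msi1*, for the RNA-binding protein Musashi 1 (53.03 to 432 CPM), in *Fgfr2*, described above, in *Cdh2*, for N-cadherin (221 to 829), and in *Slc1a3*, for the glutamate transporter of radial glia and astrocytes (652 to 1435). *Sox9*, a glial and stem cell factor gene, was at 269 and 229.6 CPM and was not called (FDR 0.522), but was called lower in the fit of the 8 *Kat6a*+/+ libraries alone (log2 fold-change −0.22, FDR 0.0395).

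Regional identity genes of the telencephalon rose more often than they fell. *Meis2* rose by 1.12, whereas *Emx2*, a dorsal factor gene, fell from 48.0 to 25.4 CPM. Of 12 tested dorsal genes of 16 listed, 7 rose and 2 fell. The 4 not tested, *Emx1*, *Fezf2*, *Neurog1* and *Dmrt3*, were at or near 0, with means of at most 0.0725 CPM in either condition. Of 11 tested ventral and interneuron genes of 17 listed, 8 rose and 1 fell (median 2.35), and 3 of those listed were at 0 in all 8 libraries. *Dlx1* and *Dlx2*, for the homeobox factors of the ganglionic eminences, rose from 0.549 to 4.91 and from 0.528 to 7.21 CPM and stayed low. *Gad1*, for the enzyme that makes GABA, fell from 4.32 to 1.11 CPM.

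Of 15 tested genes of temporal identity and gliogenesis 5 rose and 6 fell, close to the shares over all genes. Those that fell belong to early progenitors: *Hmga2*, *Hmga1* (92.1 to 13.4 CPM), *Igf2bp3* (124 to 23.9), *Trim71* (18.001 to 1.81) and *Lin28b* (0.948 to 0.272), the last 3 of the LIN28 and let-7 axis, and *Igf2bp2*. Among those that rose, *Nfix*, for a late progenitor and glial factor, measured 123, 94.5, 88.3 and 115 CPM in proliferating and 562, 512, 518 and 599.6 CPM in differentiating replicates. The differentiating libraries were all far higher (log2 fold-change 2.39 (SE 0.15, FDR 2.72e-11)). *Zbtb20*, for a factor that promotes astrocyte formation, rose from 32.4 to 311 CPM. *Nfib* was at 379 and 392.4 CPM and was not called (FDR 0.659).

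The BMP and ID list was among those with the largest rises, with 13 of 21 tested genes higher, 5 lower and a median of 2.22. Direct targets of BMP-activated SMADs stood out. *Id1* measured 10.0, 8.66, 9.66 and 9.26 CPM in proliferating and 194, 183, 209 and 207 CPM in differentiating replicates, and *Id4* 0.784, 0.962, 0.905 and 0.761 against 258, 156, 264 and 289 CPM. Neither gene showed any overlap between the groups, with log2 fold-changes of 4.37 (SE 0.24, FDR 3.41e-12) for *Id1* and 8.08 (SE 1.11, FDR 1.41e-06) for *Id4*. *Id2* and *Id3*, which like the others encode inhibitors of proneural factors, rose by 2.89 and 2.22. *Smad6*, for an inhibitory SMAD that BMP signals switch on, rose from 0.311 to 42.6 CPM and *Atoh8*, a BMP-responsive factor gene, from 0.493 to 53.2 CPM. Of the ligands and modulators, *Bmp6* had 0 counts in the proliferating group and 9.52, 17.0, 7.29 and 6.71 CPM in the differentiating replicates, at least 242-fold higher when 3 counts over the group are taken as the limit that a count of 0 allows. *Bmp7* fell from 105 to 8.23 CPM. *Nog* measured 0.228, 0.601, 0.101 and 0.254 against 83.2, 120.3, 144 and 72.6 CPM, a log2 fold-change of 8.43 (SE 1.02, FDR 2.60e-07). Its groups were separated by more than 2 orders of magnitude. *Bmpr1a*, for a type I receptor, rose from 297 to 699.9 CPM.

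Notch and Wnt lists were mixed. Of 18 tested Notch pathway genes 8 rose and 4 fell, with *Notch1*, a receptor gene, up by 0.73, *Jag1*, for a ligand, at −3.50 and the target *Hey1* up by 2.32. *Hes5* measured 7.48, 7.52, 11.6 and 12.8 CPM in proliferating and 54.8, 11.6, 33.9 and 34.7 CPM in differentiating replicates. Differentiating replicate 2 lay within the proliferating range and the other 3 above it (log2 fold-change 1.79 (SE 0.46, FDR 0.00150)). Of 24 tested Wnt genes 8 rose and 9 fell. *Lef1*, for a nuclear effector, fell from 6.46 to 0.955 CPM and *Lgr5*, for a receptor that amplifies Wnt signals, from 17.1 to 0.745 CPM.

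Astrocyte genes rose more consistently than those of the other lineages. Of 24 tested genes 20 rose and none fell, against a background of 36.7% higher, with a median of 2.08, and the list summed to 2777 to 3077 CPM in proliferating and 11074 to 13528 CPM in differentiating libraries. *Gfap*, which encodes the intermediate filament that defines astrocytes, measured 0.556, 0.240, 0.201 and 0 CPM in proliferating and 643, 503, 339 and 703 CPM in differentiating replicates. It was barely detected before and abundant after, in every library, with a log2 fold-change of 10.88 (SE 2.49, FDR 5.48e-04). *Clu*, for the secreted chaperone clusterin, measured 2.28, 1.68, 2.31 and 1.52 against 1298, 1196, 1115 and 1409 CPM, a log2 fold-change of 9.26 (SE 0.55, FDR 9.67e-12). *Mt3*, for a metallothionein of the brain, rose from 6.64 ± 0.830 to 696 ± 128 CPM, *Cst3*, for cystatin C, from 88.2 ± 2.35 to 1311 ± 202 CPM, and *Mlc1*, for a membrane protein of astrocyte endfeet, from 127 ± 17.4 to 1221 ± 222 CPM (SD, n = 4 each).

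*Apoe*, for the lipid carrier of the brain, rose from 24.5 to 395 CPM, *Ndrg2* from 8.13 to 192 CPM and *Glul*, for glutamine synthetase, from 206 to 793 CPM. *Aqp4*, for the water channel of astrocyte endfeet, measured 0.430, 0.361, 0.101 and 0.127 against 143, 79.5, 101 and 144 CPM. The groups were far apart, but the SE was large (log2 fold-change 8.54 (SE 3.72, FDR 0.0445)). The call was lost without any one of the proliferating replicates or without differentiating replicate 1 or 4 (FDR up to 0.120). In the fit of the 8 *Kat6a*+/+ libraries alone *Aqp4* was called higher (log2 fold-change 8.58, FDR 3.80e-05). *Slc1a2*, for the glutamate transporter of mature astrocytes, measured 17.95, 20.0, 25.5 and 22.8 against 54.6, 42.5, 47.4 and 28.8 CPM. Its log2 fold-change was 1.04 (SE 0.45, FDR 0.0437), and its call was lost without proliferating replicate 1 or 2 or differentiating replicate 1, 2 or 3 (FDR up to 0.131). In the 8 *Kat6a*+/+ libraries alone *Slc1a2* was called higher (log2 fold-change 1.07, FDR 0.00127). The mature markers *Aldh1l1* (16.2 and 25.7 CPM) and *S100b* (3.76 and 4.60 CPM) were not called, with FDR 0.290 and 0.466.

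Oligodendrocyte lineage genes went down on balance, 12 of 19 tested genes lower and 5 higher (median −1.67). The precursor genes made up most of the fall. *Olig2*, for a factor of the lineage that NSPCs in FGF also express, measured 1009.8, 922, 998 and 974 CPM in proliferating and 258, 179, 227 and 185 CPM in differentiating replicates. The 4 differentiating values were all far below the lowest proliferating value (log2 fold-change −2.22 (SE 0.21, FDR 6.64e-09)). *Cspg4*, for the NG2 proteoglycan of precursors, fell from 197 to 27.1 CPM and *Bcas1*, for a protein of early myelinating cells, from 89.7 to 4.79 CPM. *Pdgfra*, for the receptor of precursors, measured 67.5, 44.4, 127 and 70.5 against 65.6, 31.3, 29.8 and 40.4 CPM. Its groups overlapped, with differentiating replicate 1 inside the proliferating range, the log2 fold-change was −0.83 (SE 0.27, FDR 0.00840), and the call was lost without proliferating replicate 3 (FDR 0.0595). In the 8 *Kat6a*+/+ libraries alone it was called without a replicate block (FDR 0.0472) and not with one (log2 fold-change −0.83, FDR 0.0682). *Olig1* stayed abundant, at 1408, 1146, 1356 and 1279 against 1041, 1001, 995 and 937 CPM. Its change was −0.38 (SE 0.15, FDR 0.0326), and the call was lost when proliferating replicate 1, 3 or 4 or any one of the differentiating replicates was left out (FDR up to 0.0985). In the 8 *Kat6a*+/+ libraries alone *Olig1* was called lower (log2 fold-change −0.37, FDR 5.42e-04). *Sox10* was at 0.614 CPM before and 0.0435 CPM after. The myelin gene *Mbp* (1.14 to 5.37 CPM) rose but stayed low, and the call was lost without proliferating replicate 1 (FDR 0.0661).

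**Figure D4:**
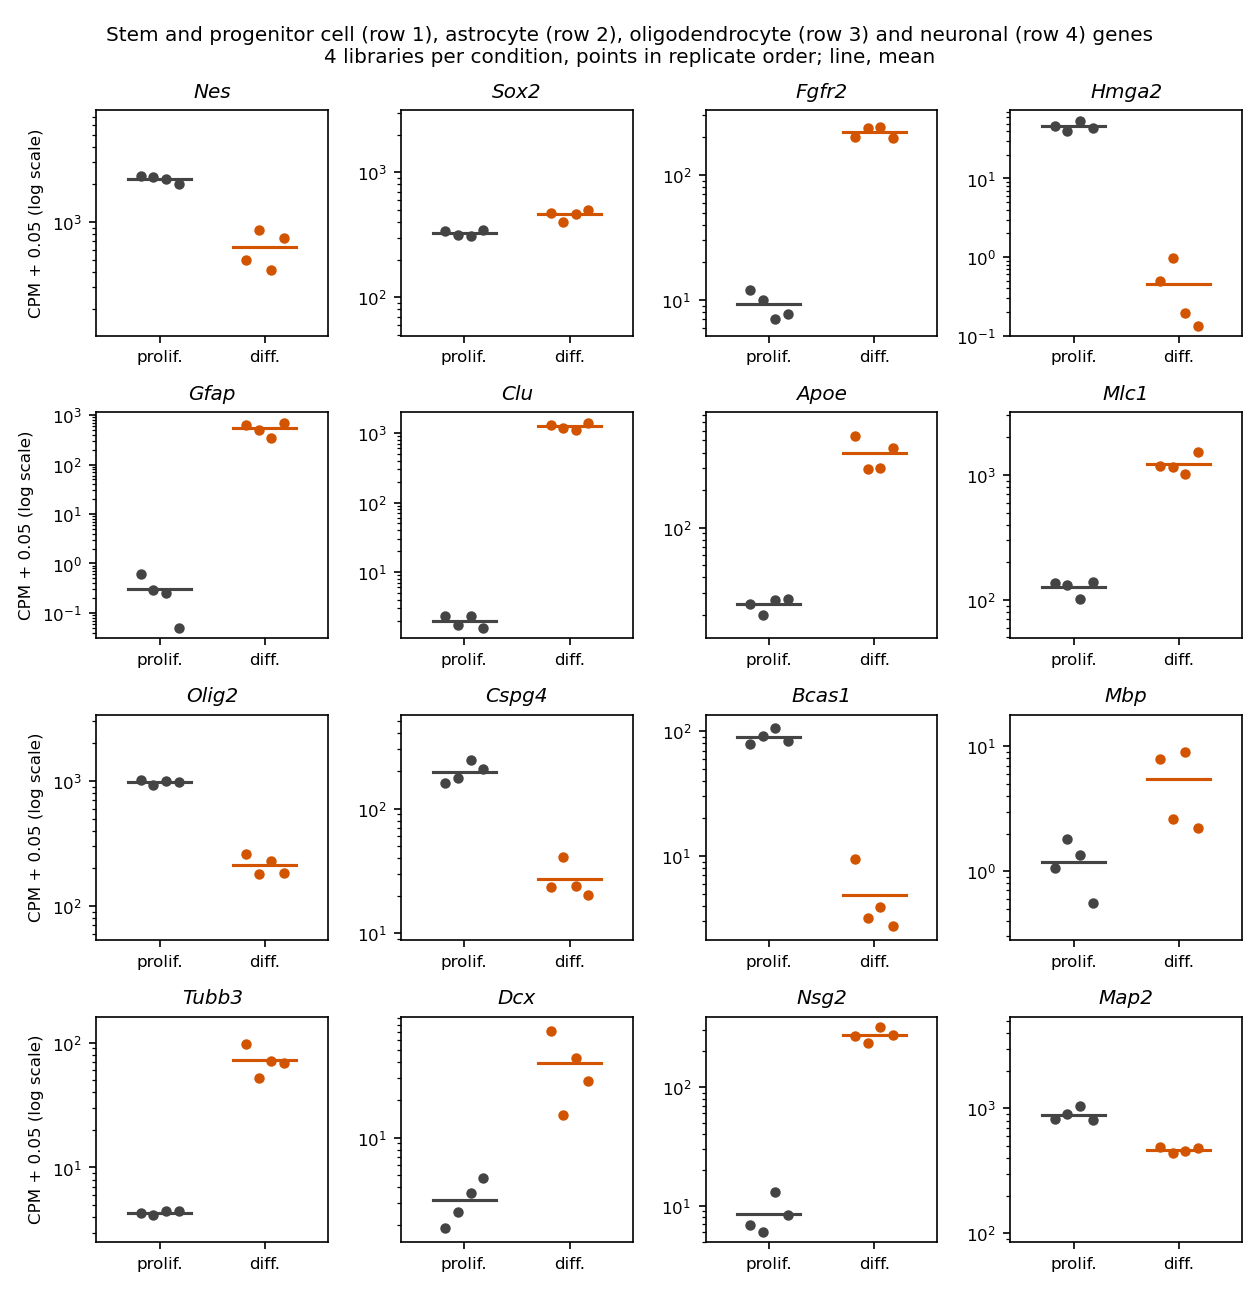
CPM plus 0.05 on a log scale in each of the 4 proliferating and 4 differentiating Kat6a+/+ libraries, with the mean as a line, for stem and progenitor (row 1), astrocyte (row 2), oligodendrocyte (row 3) and neuronal (row 4) genes. Gfap and Clu move by more than 2 orders of magnitude, Olig2, Cspg4 and Bcas1 fall in every library, and of the neuronal genes Tubb3, Dcx and Nsg2 rise while Map2 falls.

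Neurogenic transcription factors rose from a low level. Of 11 tested proneural and intermediate progenitor genes 8 rose and 1 fell (median 1.18). *Insm1*, for a factor of newly committed neuronal progenitors, measured 8.42, 7.94, 6.64 and 7.86 against 172, 51.7, 146 and 83.3 CPM, a log2 fold-change of 3.68 (SE 0.52, FDR 1.85e-06). *Eomes*, the marker of intermediate progenitors of the cortex, rose from 0.748 to 19.9 CPM and *Hes6* from 57.5 to 125 CPM. *Neurog2*, for the main dorsal proneural factor, had 3 counts in the proliferating and 97 in the differentiating group, a ratio of 29.5 (95% interval 9.81 to 146) from counting error alone. *Dll3*, for a divergent Notch ligand of early neurons, measured 5.11, 4.09, 7.75 and 5.84 against 44.5, 7.65, 33.1 and 16.4 CPM. Differentiating replicate 2 fell within the proliferating range and the other 3 above it (log2 fold-change 1.98 (SE 0.55, FDR 0.00297)).

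Neuronal structural genes split between rises and falls, 13 higher and 8 lower of 26 tested. *Tubb3*, for the neuronal tubulin used as a marker of young neurons, measured 4.27, 4.09, 4.43 and 4.44 CPM in proliferating and 97.5, 52.4, 70.9 and 68.3 CPM in differentiating replicates. All differentiating libraries were higher by about an order of magnitude (log2 fold-change 4.04 (SE 0.35, FDR 2.02e-09)). *Dcx*, for the doublecortin of migrating neurons, measured 1.85, 2.46, 3.52 and 4.69 against 70.6, 15.0, 43.4 and 28.2 CPM, a log2 fold-change of 3.76 (SE 0.71, FDR 6.94e-05). *Nsg2*, for an endosomal protein of neurons, rose from 8.54 to 275 CPM. In the opposite direction *Gap43*, for a growth cone protein, measured 690.5, 564, 408 and 524 against 31.5, 39.0, 33.7 and 38.9 CPM, a log2 fold-change of −3.89 (SE 0.24, FDR 2.03e-11). *Map2*, for the dendritic microtubule protein, fell from 891 to 468 CPM. Proliferating NSPCs thus held more *Gap43* and *Map2* RNA than the differentiating ones, with no overlap in either gene. *Rbfox3* was not called (0.03 (SE 0.35, FDR 0.948)).

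Genes for the synapse and for excitability showed single large rises within mixed lists. Of 22 tested genes of synaptic vesicles and release 12 rose and 6 fell. *Scg2*, for the granin secretogranin II, measured 0.228, 0.240, 0.302 and 0.127 CPM in proliferating and 59.9, 52.2, 59.8 and 25.1 CPM in differentiating replicates. It was near 0 in every proliferating library and abundant in every differentiating one (log2 fold-change 7.498 (SE 1.35, FDR 4.19e-05)). *Syt1*, for the calcium sensor of vesicle release, fell from 118 to 9.68 CPM, and *Snap25* rose from 0.799 to 2.74 CPM with overlapping groups, a call that was lost without proliferating replicate 1 (FDR 0.103). Of 25 glutamate and GABA receptor genes 8 rose and 7 fell. *Gria1*, for an AMPA receptor subunit, measured 0.0759, 0, 0.201 and 0.127 against 26.7, 33.9, 25.6 and 41.7 CPM. Its SE in the fit of all 24 libraries was large (log2 fold-change 8.31 (SE 2.68, FDR 0.00850)). *Grm5*, for a metabotropic receptor, measured 207, 187, 259 and 229 against 26.3, 22.3, 20.2 and 23.01 CPM and fell by 3.27 (SE 0.12). The 2 receptors thus moved in opposite directions, each without overlap. Of 26 voltage-gated channel genes 14 rose and 6 fell, *Cacna1a*, for a presynaptic calcium channel, by 2.57 upwards. Of 39 axon guidance genes 22 rose and 5 fell, *Epha4*, an ephrin receptor gene, from 4.05 to 118 CPM. Of 16 tested genes of cortical layer identity 6 rose and 4 fell, with a median of 0.02.

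Matrix and contractile genes changed strongly in both directions. Of 27 tested targets of YAP, TEAD and SRF, regulators of transcription that respond to attachment and to actin tension, 18 rose and 3 fell (median 1.90). *Ccn1* measured 6.07, 10.0, 13.5 and 8.12 CPM in proliferating and 186, 299.6, 174 and 173 CPM in differentiating replicates, and *Ccn2* 1.14, 1.08, 0.805 and 0.761 against 191, 246, 187 and 83.4 CPM. Differentiating replicate 2 was the highest of its group for *Ccn1*, and both genes were separated between conditions, with log2 fold-changes of 4.66 (SE 0.47, FDR 1.92e-08) and 7.32 (SE 2.23, FDR 0.00574). *Myl9*, for a myosin light chain, rose from 0.694 to 87.7 CPM. *Tagln2*, for transgelin 2, fell from 969 to 62.1 CPM and *Zyx*, for the focal adhesion protein zyxin, from 214 to 63.3 CPM. Attachment to laminin differed between the cultures by design, together with serum, growth factors and RNA kit, and its part in these changes was not tested.

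Of 32 fibronectin and matricellular genes 12 rose and 10 fell, close to the background in both directions. *Thbs1*, for thrombospondin 1, measured 9.84, 12.2, 19.0 and 13.4 CPM in proliferating and 1252, 1638, 1327 and 1484 CPM in differentiating replicates. The differentiating values were all far above the proliferating ones (log2 fold-change 6.88 (SE 0.27, FDR 1.80e-14)). *Sparc* rose by 2.47 (SE 0.27) and *Fn1*, for fibronectin, by 2.13 (SE 0.58). *Spp1*, for osteopontin, fell from 34.5 to 1.47 CPM and *Plaur*, for the urokinase receptor, from 7.43 to 0.380 CPM. The integrin genes changed in opposite directions, *Itga3* from 0.344 to 74.0 CPM and *Itga4* from 242 to 1.55 CPM. Of 35 tested collagen genes 18 rose and 3 fell (median 1.52). The basement membrane chain genes *Col4a5* and *Col4a6* rose from 43.6 to 505 and from 3.25 to 98.5 CPM. *Col8a2* had 3 counts in the proliferating group against 72.4, 49.8, 52.7 and 102 CPM in the differentiating replicates, a ratio of 1753 (95% interval 599.7 to 8505) from counting error alone.

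Chromatin genes shifted by small amounts with a few exceptions. BAF is the remodelling complex in which neurons exchange subunits of progenitors for others. Of 21 tested BAF genes 5 rose and 10 fell. *Actl6a*, for the progenitor subunit BAF53A, fell from 129 to 74.4 CPM. *Actl6b*, for its neuronal counterpart BAF53B, had 0 counts in the proliferating group and 2.70, 1.04, 2.12 and 2.26 CPM in the differentiating replicates, at least 50.5-fold higher by the same limit of 3 counts. Per kilobase of gene model *Actl6b* reached 1.30 against 37.8 CPM for *Actl6a* in differentiating cells, so that the progenitor form stayed the more abundant. *Smarcd3* rose from 28.4 to 60.7 CPM and *Dpf3*, another subunit gene that neurons favour, fell from 44.3 to 7.03 CPM. *Srrm4*, for the splicing factor of neuronal microexons, measured 0.101, 0.120, 0.402 and 0.761 against 18.2, 25.3, 17.0 and 16.5 CPM, a log2 fold-change of 6.41 (SE 0.78, FDR 2.71e-07), while *Ptbp1*, for the repressor of neuronal exons, fell by 0.61.

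Of 19 genes of the KAT6A, MLL and menin complexes 15 fell and 2 rose, against 36.2% lower over all genes, with a median of −0.46 and only *Ing5* beyond 1 (−1.65). *Kat6a* itself fell by 0.57 (SE 0.11, FDR 8.72e-05), with no overlap between the values given at the outset, while its paralogue *Kat6b* rose from 56.9 to 86.5 CPM. Per kilobase of gene model *Kat6a* stood at 43.3 and *Kat6b* at 7.27 CPM in proliferating cells, and at 29.3 and 11.05 in differentiating cells. Of 26 genes of polycomb and DNA methylation 7 rose and 13 fell. *Ezh2*, for the methyltransferase of dividing cells, fell from 206 to 83.4 CPM and *Ezh1*, its counterpart in resting cells, rose from 10.1 to 22.1 CPM. *Dnmt1*, for the maintenance DNA methyltransferase, measured 620.1, 542, 595 and 530.1 against 137, 141, 150.4 and 114 CPM and fell by 2.08, whereas *Dnmt3a*, for a de novo enzyme, rose from 184 to 287 CPM. Each of these 4 genes had no overlap between the conditions, like most of the list. Of its 26 genes, 6 lay wholly above and 14 wholly below the proliferating range. *Phf19* and *Pcgf2*, for accessory polycomb proteins, rose by 2.94 and 2.59.

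Of 28 genes of antigen presentation and interferon response 18 rose and 3 fell (median 0.81), with *Tapbp*, for the peptide-loading protein tapasin, from 14.8 to 126 CPM and *Ifi27* from 3.47 to 43.5 CPM. Of 28 tested genes of reactive glia and gp130 signalling 12 rose and 6 fell. *Il6st*, for the shared receptor gp130, rose from 86.6 to 516 CPM and *Osmr*, for an oncostatin M receptor chain, from 0.688 to 16.4 CPM. The microglia markers, summed above, were lower in differentiating libraries and at most 5.46 CPM in all.

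Markers of other cell types that the dissection could hold moved in part. The choroid plexus and ependymal list summed to 15.0 to 23.8 CPM in proliferating and 278 to 446 CPM in differentiating libraries, and 5 of 6 tested of 10 listed genes rose. Most of the sum was *Foxj1*, for a factor of ciliated cells, which measured 9.58, 7.03, 7.64 and 7.86 against 247, 257, 217 and 396 CPM, a log2 fold-change of 5.01 (SE 0.34, FDR 8.03e-11). *Folr1* had 2 counts against 9.80, 16.4, 12.3 and 17.2 CPM, while the defining choroid plexus gene for transthyretin stayed at or below 0.193 CPM and *Tmem212* was at 0. The Cajal-Retzius list summed to 74.7 to 87.8 and 242 to 433 CPM, and 2 of its 3 tested genes rose and 1 fell. *Reln*, for the secreted protein reelin, held 5.73 and 295 CPM of the sum, and the defining genes *Lhx1* and *Lhx5* were at 0. The endothelial list summed to 7.74 to 14.5 and 46.9 to 73.0 CPM, with *Kdr* at 5.82 and 63.8 CPM and *Cldn5* and *Sox17* at 0. Of the 3 tested endothelial genes only *Kdr* rose and 2 fell, with a median log2 fold-change of −3.79. The mesenchymal, meningeal and pericyte list summed to 110.3 to 131 and 127 to 170.4 CPM, and of its 6 tested genes 2 rose, *Pdgfrb* to 11.1 CPM among them, and 1 fell. The part of such cells in the rises of *Ogn*, *Fmod* and *Acta2* was not tested.

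Genes often used for normalisation were not all stable. Of 14 reference genes 3 rose and 6 fell. *Hprt1* measured 85.1, 88.7, 78.1 and 81.4 CPM in proliferating and 6.33, 11.9, 6.61 and 5.37 CPM in differentiating replicates. The conditions did not overlap and the log2 fold-change was −3.56 (SE 0.48, FDR 1.05e-06). *Tfrc*, for the transferrin receptor, fell by 2.02.

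The same change of culture was set beside that in the other genotypes, each with its own 4 and 4 libraries. In *Kat6a*+/- NSPCs 9466 genes differed between the conditions and in *Kat6a*-/- NSPCs 9411. An interaction term tested whether the response itself differed from that of *Kat6a*+/+ cells. For *Kat6a*+/- no gene passed (0% called), and none by edgeR or DESeq2. At an unadjusted p under 0.05 there were 412 genes, fewer than that threshold gives by chance over 13590 tests. For *Kat6a*-/- 1895 genes passed (13.9% called), 865 with a higher and 1030 with a lower log2 fold-change. With quality weights on the libraries 4800 passed, 2428 higher and 2372 lower. Scaled by library totals instead of TMM, the split was 531 higher and 1869 lower, with a median difference over all genes of −0.15. Division genes fell by less in *Kat6a*+/+ cells: 36 of 43 S phase and 40 of 51 G2 and mitosis genes had a lower log2 fold-change in *Kat6a*-/- cells by this test, the medians being −1.79 against −3.21 and −1.71 against −3.87. *Mki67* changed by −2.06 in *Kat6a*+/+ and by −5.24 in *Kat6a*-/- cells, a difference of −3.17 (SE 0.44, FDR 1.79e-04). Proneural genes differed too, with 6 of 11 rising by more in *Kat6a*+/+ cells, among them *Insm1* (3.68 against −1.02, FDR 0.00119) and *Dll3* (1.98 against −2.79, FDR 0.00681). *Dcx* rose by 3.76 in *Kat6a*+/+ cells and had a log2 fold-change of −0.24 in *Kat6a*-/- cells (FDR of the difference 0.0381). *Tubb3*, at 4.04 and 4.50, was not called for a difference (FDR 0.707), nor was *Gfap*, at 10.88 and 7.497 (FDR 0.465). In the hypoxia and glycolysis list 13 of 27 genes differed, 12 of them with a lower fold-change in *Kat6a*+/+, as for *Ldha* (−1.38 against 0.25, FDR 0.00570) and *Adm* (−5.61 against −0.95, FDR 0.0128).

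**Figure D5:**
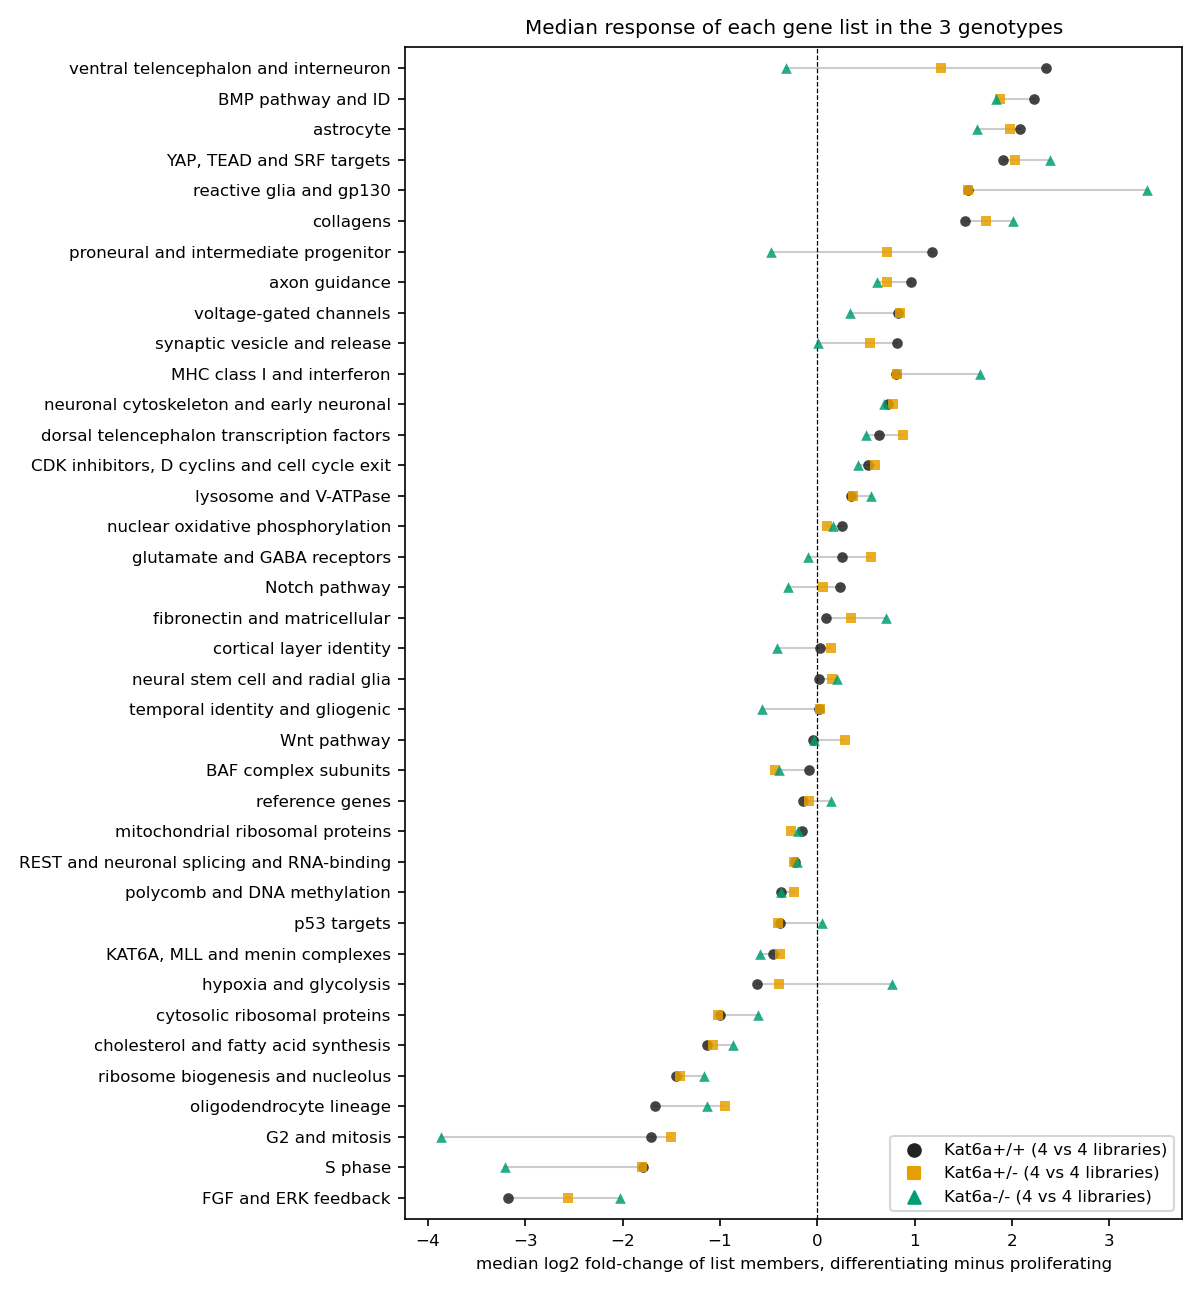
Median log2 fold-change, differentiating minus proliferating, of the tested members of each gene list (horizontal axis) in Kat6a+/+ (black circles), Kat6a+/- (orange squares) and Kat6a-/- (green triangles) NSPCs, each from 4 against 4 libraries. The S phase and the G2 and mitosis medians lie at −1.79 and −1.71 in Kat6a+/+ and at −3.21 and −3.87 in Kat6a-/- cells, and the proneural median is 1.18 in Kat6a+/+ and −0.47 in Kat6a-/- cells.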

How the data were processed

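RNA was sequenced from *Kat6a*+/+, *Kat6a*+/- and *Kat6a*-/- NSPCs in 2 cultures, 4 libraries each (24 in all, stranded polyadenylated mRNA). Per the labels and the study's methods, the authors aligned reads to mm39 with Rsubread and counted them per gene with featureCounts in a strict RefSeq annotation, and they deposited raw counts per gene and library, with no normalization. Versions of these tools and the strand setting are not given in the sources used here, so overlapping and near-identical genes are uncertain. Groups and replicates were taken from the labels.

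Of 26411 genes, 21030 were protein-coding by a RefSeq gene table (52 had no biotype), without Xist and genes of the Y chromosome, and 13590 passed edgeR's filterByExpr. TMM factors, limma-voom with 6 groups, the litter as a random block (correlation 0.00365), robust empirical Bayes and Benjamini-Hochberg adjustment were used in R 4.3.3 (limma 3.58.1, edgeR 4.0.16, DESeq2 1.42.0 and statmod 1.5.0). The interaction term compared the condition effect between genotypes. Intervals of count ratios are exact 95% intervals and, like the limit of 3 counts for a count of 0, cover counting error only. Named genes are members of the lists and the 8 largest rises and falls in mean CPM. Also named are the 12 largest rises and falls among called genes with groups that do not overlap. Their average log2 CPM over the 24 libraries had to exceed 2. A few genes that this rule names are not reported here. The lists and the comparison were chosen with earlier results of these data known.

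No 2 replicates of a group were alike within sampling noise (chi-square per degree of freedom at least 6.91). Replicate numbers were not taken to pair the libraries, since the deviations of same-numbered libraries correlated at −0.17, 0.13, 0.20 and 0.04. Proliferating and differentiating replicates 1 and 3 carry the same embryo label, replicates 4 the same litter from different embryos, and replicates 2 different litters. The fit was tested on simulated data of 13590 genes: of 50 genes each changed by 1.5, 2, 4 and 8-fold it recovered 20, 38, 47 and 48. There were 5 false calls among the unchanged genes. The simulation changed few genes, equally up and down, and held no litter effect, whereas 72.9% of genes were called in the real contrast. It therefore cannot test the scaling or the error rate in that setting. The alternatives were other scalings, filters, litter terms and tools, the 8 *Kat6a*+/+ libraries alone with and without a replicate block, quality weights, and leaving out each library.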

Additional observations from a re-analysis of the deposited data

Results flagged for a closer look

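Among the genes named in the text, a single library stood far from the other 3 of its group in 22 of 386 groups of 4 values, by a gap to the nearest library that took up most of the range of the group. Chance gives about 1 such group in 20. Differentiating replicate 2 accounted for 8 of them. It was the highest for *Spry4* at 33.0 CPM (others 8.55 to 12.501), *Arc* at 1.26 CPM (others 0.241 to 0.330), *Lgr5* at 1.91 CPM (others 0.275 to 0.503), *Ccn1* at 299.6 CPM (others 173 to 186), *Myl9* at 139 CPM (others 62.9 to 75.0), *Zyx* at 86.0 CPM (others 52.5 to 58.1) and *Spp1* at 3.82 CPM (others 0.671 to 0.716). It was the lowest for *Npm1* at 97.5 CPM (others 119 to 121). In each of these genes the 2 conditions did not overlap with that library included.

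Differentiating replicate 3 was the highest of its group for *Fbln2* at 13.7 CPM (others 9.39 to 9.93) and *Ccdc3* at 212 CPM (others 177 to 181). Differentiating replicate 4 was the highest of its group for *Ogn* at 366 CPM (others 268 to 269.9) and *Pfkm* at 304 CPM (others 269 to 272). Differentiating replicate 4 was the lowest of its group for *Hmga1* at 11.7 CPM (others 13.8 to 14.1). Proliferating replicate 1 was the highest of its group for *Fmod* at 0.0759 CPM (others 0) and *Folr1* at 0.0506 CPM (others 0). Proliferating replicate 2 was the highest of its group for *Tfrc* at 498 CPM (others 348 to 357). Proliferating replicate 3 was the highest of its group for *Dlx2* at 0.905 CPM (others 0.381 to 0.421), *Itga4* at 290.5 CPM (others 222 to 228) and *Col4a6* at 5.53 CPM (others 2.34 to 2.60). Proliferating replicate 3 was the lowest of its group for *Pfkm* at 88.6 CPM (others 110.4 to 112) and *Eef1a1* at 6214 CPM (others 6836 to 6956). Proliferating replicate 4 was the highest of its group for *Col8a2* at 0.381 CPM (others 0). For *Fmod*, *Col8a2* and *Folr1* the value of the lone library is 2 or 3 counts.

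The log2 fold-change of differentiating over proliferating differed between *Kat6a*-/- and *Kat6a*+/+ NSPCs at FDR under 0.05, by the interaction term, for 1895 of the 13590 genes and for 59 of the 193 genes named in the text, and for none of them between *Kat6a*+/- and *Kat6a*+/+. Values below are the difference, *Kat6a*-/- minus *Kat6a*+/+, on the log2 scale. Among genes of division and DNA methylation it was −3.17 for *Mki67*, −2.87 for *Top2a*, −1.98 for *Cdk1*, −2.82 for *Ccnb1*, −2.48 for *Kif11*, −1.67 for *Mcm3*, −2.13 for *Uhrf1*, −0.70 for *Pcna*, −1.80 for *Rbl1*, −1.08 for *Ezh2* and −1.59 for *Phf19*. Among proneural and neuronal genes it was −4.69 for *Insm1*, −4.77 for *Dll3*, −1.56 for *Hes6*, −4.001 for *Dcx*, −2.92 for *Nsg2*, 1.45 for *Gap43* and −4.04 for *Actl6b*. Among stem cell, Notch and BMP genes it was 1.25 for *Nes*, −1.29 for *Msi1*, −0.998 for *Fgfr2*, 0.52 for *Cdh2*, −1.12 for *Slc1a3*, −0.82 for *Notch1*, −1.75 for *Id1*, −1.05 for *Id2* and −0.72 for *Id3*. Among temporal and gliogenic genes it was 1.56 for *Hmga1*, −1.06 for *Nfix*, −1.38 for *Zbtb20* and −0.62 for *Nfib*. Among astrocyte and oligodendrocyte genes it was −2.36 for *Mt3*, −1.47 for *Mlc1*, −0.94 for *Glul*, −0.76 for *Olig1*, −0.91 for *Olig2*, −1.65 for *Pdgfra* and 1.52 for *Cspg4*. Among growth factor genes it was 1.02 for *Myc*, 1.41 for *Hbegf*, 1.46 for *Dusp5* and 3.87 for *Lif*. Among matrix, adhesion and actin genes and the Wnt receptor gene *Lgr5* it was 2.70 for *Lgr5*, 2.83 for *Tagln2*, 2.09 for *Zyx*, 2.77 for *Fn1* and 5.97 for *Plaur*. Among the remaining named genes it was 1.64 for *Ldha*, −0.91 for *Ldhb*, 0.69 for *Rplp0*, 0.80 for *Eef1a1*, 0.66 for *Eef2*, 0.77 for *Ctsl*, 1.86 for *Nptx1*, 4.66 for *Adm*, −3.68 for *Ccdc3*, −2.83 for *Ednrb*, 0.45 for *Hsp90ab1* and 2.23 for *Hprt1*. A negative value marks a lower log2 fold-change in *Kat6a*-/- than in *Kat6a*+/+ cells.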

How the results depend on the processing

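The number of genes that differed between differentiating and proliferating *Kat6a*+/+ NSPCs stayed within 1.5 times of 9913 under all 20 alternatives, from 9025 with a stricter count filter to 10968 with quality weights, and from 9276 to 9725 with a library left out. It was 9820 by edgeR's quasi-likelihood test and 9948 by DESeq2. Beyond 1 on the log2 scale the count ranged from 3882 to 5410 against 4716, and from 4588 to 4788 with a library left out. The median of all genes moved to at most 0.06. In the 8 *Kat6a*+/+ libraries alone 10179 genes were called, and 10148 with a replicate block, 4492 of them beyond 1. The block changed the call of *Pdgfra* alone among the 193 named genes when set beside the fit of the same 8 libraries.

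Of the 193 named genes, 186 had a value under every alternative, and 177 of these kept their direction and their side of the threshold under all of them. Of the other 7, which a stricter filter or the fit of 8 libraries left out, 2 changed where they were tested. *Rbfox3*, not called, had a log2 fold-change of −0.12 with litter as a fixed term, −0.38 with quality weights, and −0.17 to 0.30 with a library left out. Calls were lost for *Fabp7*, *Aqp4* and *Slc1a2* with litter as a fixed term, for *Fabp7* and *Olig1* with library totals, for *Fabp7* with all genes in the fit, for *Aqp4* with a stricter filter, for *Slc1a2* with none, for *Pdgfra* with the replicate block, and for these genes, *Mbp* and *Snap25* with some library left out. Calls were gained for *Dusp5* with litter as a fixed term, quality weights or a library left out, for *Sox9* in the 8 libraries alone and for *Stmn2* with quality weights. The cause was not tested. The sign of the list median changed under some alternative for the cortical layer, matricellular, stem cell, temporal and Wnt lists, all with medians near 0, and for the endothelial markers.

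The difference between *Kat6a*+/- and *Kat6a*+/+ cells, 0 genes as reported, was 2 genes with litter as a fixed term, 1 with quality weights and 0 to 1 with a library left out. The difference between *Kat6a*-/- and *Kat6a*+/+ cells, 1895 genes, was 4800 with quality weights, of which 1887 were shared, 2768 by DESeq2, 2400 with library totals and 1265 to 2038 with a library left out, 1265 being without proliferating replicate 1. Depth limits the genes at 0 or a few counts in proliferating cells, whose ratios are known only to about an order of magnitude. Growth factors, serum, attachment and RNA kit cannot be told apart by any of these alternatives.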
